A study of Homo sapiens with 8 samples.

Results

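*MYC*, its noncoding neighbours on 8q24 and the genes of the MAX network were named as 8 members: *MYC*, *PVT1*, *CASC19*, *MAX*, *MXD1*, *MXD4*, *MXI1* and *MLX*. Of these, 7 had a row among the 18955 genes of the single-cell count table, and *PVT1* was not analysed here. The members were chosen by name and role, with no threshold on their levels. MYC is a transcription factor that binds DNA as a dimer with MAX, at E-box sites with the core CACGTG. MXD1, MXI1 and MXD4 also dimerise with MAX, occupy the same kind of site and recruit SIN3 corepressors with histone deacetylases, so that they oppose MYC. MLX is a MAX-like protein that pairs with MXD1, MXD4 and MNT and with the nutrient-sensing factors MLXIP and MLXIPL. BET bromodomain proteins, the targets of JQ1, are known to act in *MYC* transcription.

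The cells were SUM159, an established triple-negative breast cancer line that carried a lentiviral barcode library, and each of 8 libraries held pooled cells of replicate cultures, which cannot be told apart within a library. The libraries without JQ1 were pre-treatment cells and cells passaged in DMSO, in 0.6 nM paclitaxel or in 160 nM palbociclib. The libraries with JQ1, at 100 nM, were JQ1-A, JQ1-B, JQ1+paclitaxel and JQ1+palbociclib. Selection ran for up to 18 passages. DMSO, paclitaxel, JQ1-A and JQ1+paclitaxel were taken as 1 experiment. Palbociclib, JQ1-B and JQ1+palbociclib were taken as another, with no vehicle library of its own. The paper plots DMSO cultures beside both combinations, so the place of this DMSO library is an assumption. The JQ1+palbociclib arm lost a culture during selection, which left a pair of cultures, while the library protocol names triplicates for every arm. Paclitaxel stabilises microtubules and palbociclib inhibits CDK4 and CDK6.

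The libraries held 459 to 1024 cells and 10621159 to 24240835 UMIs (unique molecular identifiers, each counting 1 captured RNA molecule). Of 5738 cells, 5575 passed the study's filter. The sequence tags that name single cells, which are not the lentiviral barcodes, were mostly unique. Of these cell tags, 13 occurred in more than 1 library, in 26 cells. The mesenchymal genes *VIM* (3279 to 4502 CPM) and *CD44* (228 to 437 CPM) were high in every library. *ESR1*, *PGR* and the blood-cell gene *PTPRC* were at most at 0.471 CPM, and *EPCAM* and *KRT5* at most at 0.565 CPM, while the keratins *KRT8* and *KRT18* were between 275 and 669 CPM. The receptor gene *ERBB2* was low but above *ESR1* and *PGR*. It was at 5.32 to 7.34 CPM in pre-treatment, DMSO and paclitaxel and at 10.07 CPM or more in the other libraries. *CDH1* was not among the genes counted. Mitochondrial UMIs made up a median of 3.72 to 3.96% of a cell in pre-treatment, DMSO and paclitaxel and 4.69 to 7.18% in the other libraries. With mitochondrially encoded genes left out of totals and tests, 3496 genes were called for JQ1 in place of 3488, and the calls for *MYC* (0.81), *MXD4* (1.22) and *CASC19* (-3.92) held.

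Levels are given as CPM, the UMIs of a gene scaled to a common total of UMIs in each library. Such levels are relative to all RNA captured, so a lower level of a gene and a higher level of the other RNA cannot be told apart. Fold changes come from a fit across 9288 genes that had at least 5 CPM in at least 2 libraries, on libraries rescaled by TMM. Its JQ1 term set 4 libraries against 4, and its terms for each partner drug set 2 against 6. The terms were fitted together, so a fitted fold change is not the ratio of the group means in CPM. All 7 members passed this filter. *CASC19* passed through pre-treatment, paclitaxel and palbociclib alone. Without that rescaling the middle gene of all those tested moved from -0.003 to -0.20 on the log2 scale. The calls then split into 862 higher and 2925 lower, so fitted changes are relative to the bulk of genes and ratios of CPM are not. A gene was called at an adjusted p (Benjamini-Hochberg) under 0.05. For JQ1, 37.6% of the tested genes were called, 17.8% higher and 19.7% lower, and in 28.2% the libraries with and without JQ1 did not overlap. Of the 7 members, 3 were called: *MYC* and *MXD4* higher and *CASC19* lower.

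**Figure D1:**
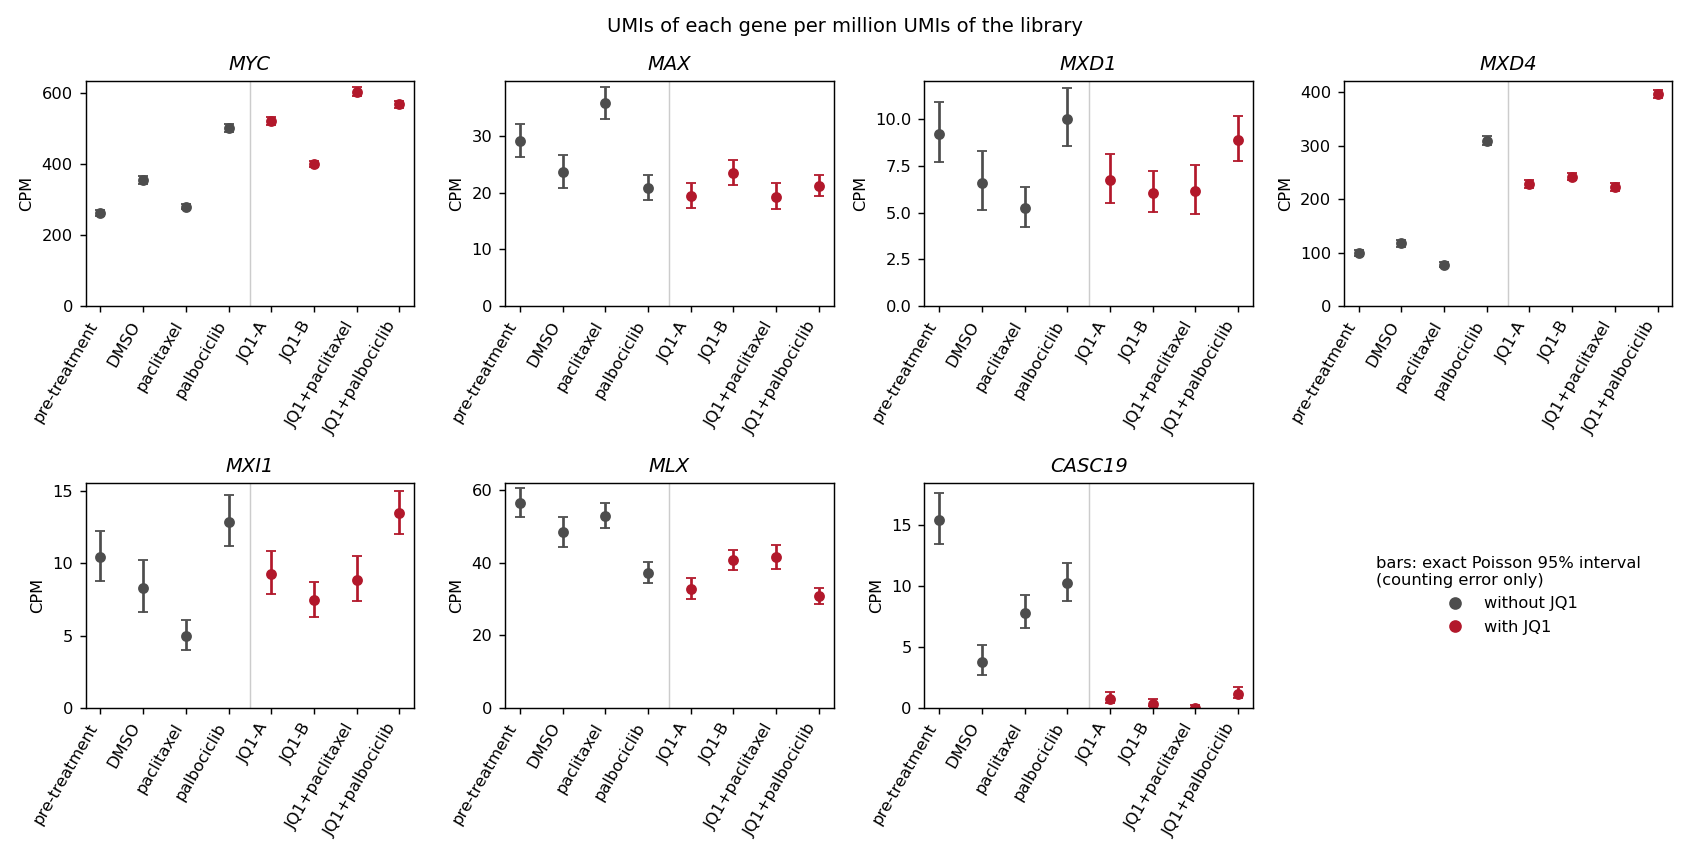
Level of each of the 7 genes (CPM, linear axis from 0) in the 4 libraries without JQ1 (grey) and the 4 with JQ1 (red). Bars are exact Poisson 95% intervals, which cover counting error only. *CASC19* is at most at 1.16 CPM in every library with JQ1, and *MXD4* is high in palbociclib, JQ1+palbociclib and the other libraries with JQ1.

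*MYC* (chromosome 8, 128747680 to 128755197, plus strand, GRCh37, protein-coding) rose with JQ1. Without JQ1 it was at 263 CPM in pre-treatment, 356 in DMSO, 281 in paclitaxel and 503 in palbociclib. With JQ1 it was at 522 CPM in JQ1-A, 401 in JQ1-B, 604 in JQ1+paclitaxel and 569 in JQ1+palbociclib. The groups overlapped, since palbociclib lay above JQ1-B. The means were 351 ± 109 CPM without JQ1 and 524 ± 88.5 CPM with it (SD, n = 4 each), and the fitted log2 fold change was 0.81 ± 0.19 (SE, edgeR adjusted p = 0.0132), 1.75-fold. Within matched libraries, the ratio of *MYC* CPM was 1.47 for JQ1-A to DMSO (95% interval 1.41 to 1.53, counting error only). It was 2.15 for JQ1+paclitaxel to paclitaxel (2.08 to 2.23) and 1.13 for JQ1+palbociclib to palbociclib (1.10 to 1.16). All 3 ratios exceeded 1, and the one within palbociclib was the lowest.

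*MYC* also varied between libraries of the same drug exposure, though DMSO cells were passaged and pre-treatment cells were not. The log2 ratio of CPM + 1 was 0.43 for DMSO to pre-treatment and -0.38 for JQ1-B to JQ1-A. Among the 4433 genes that averaged 20 CPM or more, 95% of the absolute log2 ratios were under 0.462 and 0.369 in these pairs. The call for *MYC* was lost without pre-treatment (0.72, adjusted p = 0.0511) or JQ1-A (0.72, 0.0534), with experiment as a term (0.80, 0.0793) and in 3 matched pairs, each a library with JQ1 and its partner without (0.80, 0.0828). Within the JQ1+palbociclib experiment, where the library without JQ1 carries palbociclib, the *MYC* difference was -0.008 ± 0.25 (adjusted p = 0.993).

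Nearly every cell carried *MYC* RNA. The share of cells with a *MYC* UMI was 93.7% in pre-treatment (95% exact binomial interval 91.4 to 95.5, counting error only) and 98.5% in JQ1+palbociclib (97.6 to 99.2). After each cell was thinned to 10000 UMIs, to put cells of unequal depth on 1 footing, it ranged from 80.8% in pre-treatment to 96.4% in JQ1+paclitaxel. The median thinned cell had 2 *MYC* UMIs in pre-treatment and paclitaxel, 3 in DMSO and JQ1-B, 5 in palbociclib, JQ1-A and JQ1+palbociclib and 6 in JQ1+paclitaxel. Cell-to-cell variation of *MYC* beyond counting noise, as a squared coefficient of variation, was 0.552 in pre-treatment, 0.344 in DMSO, 0.495 in paclitaxel and 0.593 in JQ1-B. It was 0.318 in JQ1-A, 0.281 in JQ1+paclitaxel, 0.266 in palbociclib and 0.224 in JQ1+palbociclib. For genes with means within 1.5 times that of *MYC* the median was between 0.0875 and 0.149 in the 8 libraries, below *MYC* in each. All cells are of 1 line, so no cell type lacking *MYC* was at hand to measure free RNA.

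*MAX* (chromosome 14, 65472892 to 65569413, minus strand) encodes the obligate partner of MYC and a partner of the MXD proteins. It was at 29.1 CPM in pre-treatment, 23.5 in DMSO, 35.7 in paclitaxel, 20.8 in palbociclib, 19.3 in JQ1-A, 23.4 in JQ1-B, 19.2 in JQ1+paclitaxel and 21.2 in JQ1+palbociclib. Paclitaxel was the highest library and the groups overlapped. Its fitted log2 fold change with JQ1 was -0.17 ± 0.15 (adjusted p = 0.373), not called.

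*MXD4* (chromosome 4, 2249159 to 2263836, minus strand) encodes a MAX partner of the repressing branch, typical of differentiating and resting cells. Without JQ1 it was at 99.8 CPM in pre-treatment, 118 in DMSO, 77.7 in paclitaxel and 310 in palbociclib. With JQ1 it was at 229 CPM in JQ1-A, 242 in JQ1-B, 223 in JQ1+paclitaxel and 397 in JQ1+palbociclib. The groups overlapped through palbociclib alone, and the other libraries without JQ1 lay below every library with it. The means were 151 ± 107 CPM without JQ1 and 273 ± 83.2 CPM with it (SD, n = 4 each). The fitted log2 fold change with JQ1 was 1.22 ± 0.20 (adjusted p = 0.00343), 2.33-fold. The ratio of CPM was 1.95 for JQ1-A to DMSO (95% interval 1.82 to 2.08), 2.87 for JQ1+paclitaxel to paclitaxel (2.69 to 3.05) and 1.28 for JQ1+palbociclib to palbociclib (1.24 to 1.32). Libraries of the same drug exposure were close, at log2 ratios of 0.24 for DMSO (passaged) to pre-treatment (not passaged) and 0.08 for JQ1-B to JQ1-A. The call held without any 1 library and was lost with experiment as a term (1.14, adjusted p = 0.0555), in the 3 matched pairs (1.13, 0.0584) and within the JQ1+palbociclib experiment (0.09, 0.944).

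Promoter windows of *MXD4* and *MLX* are shown because they were the only ones to hold the E-box core CACGTG among the windows of 5 members (*MAX*, *MXD1*, *MXD4*, *MXI1* and *MLX*). The sequences are the 250 bases upstream of the RefSeq start on GRCh38.p14, written 5′ to 3′ on the gene's strand, with the core in capitals. The core is a palindrome, so both strands are covered. Of 27305 genes with such a window, 7.73% hold it in at least 1 window. It ends 233 bases before the start of *MXD4* (chr4:2262110-2262359, minus strand) and 45 bases before that of *MLX* (chr17:42566850-42567099, plus strand), and a match does not show binding. For *MAX*, 1 window holds the start of its coding sequence and the other lies further downstream. The sequence upstream of the 5′ end of *MAX* was thus not examined.
MXD4: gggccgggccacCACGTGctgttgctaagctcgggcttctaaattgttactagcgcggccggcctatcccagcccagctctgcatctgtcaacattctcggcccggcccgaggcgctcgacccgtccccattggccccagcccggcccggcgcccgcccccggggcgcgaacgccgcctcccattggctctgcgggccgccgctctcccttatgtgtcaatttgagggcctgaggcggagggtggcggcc
MLX: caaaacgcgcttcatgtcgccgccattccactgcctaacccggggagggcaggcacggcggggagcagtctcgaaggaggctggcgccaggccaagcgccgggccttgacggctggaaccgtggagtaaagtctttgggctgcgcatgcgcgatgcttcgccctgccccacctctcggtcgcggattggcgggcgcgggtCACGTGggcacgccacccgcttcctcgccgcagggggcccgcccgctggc

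*MXD4* was detected in most cells and in more of them where its level was high. The share of cells with a UMI was 78.3% in paclitaxel (95% exact binomial interval 75.2 to 81.2), 84.2% in pre-treatment, 88.7% in DMSO and 93.0 to 98.4% in the other libraries. In thinned cells it was 52.5% in paclitaxel, 62.4% in pre-treatment, 67.2% in DMSO, 82.2 to 85.9% in JQ1-A, JQ1-B and JQ1+paclitaxel, 93.4% in palbociclib and 96.7% in JQ1+palbociclib. The thinned shares came in the same order of libraries as the CPM.

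*MXD1* (chromosome 2, 70124820 to 70170077, plus strand) and *MXI1* (chromosome 10, 111967363 to 112047123, plus strand) encode further MAX partners that oppose MYC, and both were low. *MXD1* was at 9.22 CPM in pre-treatment, 6.59 in DMSO, 5.23 in paclitaxel and 10.0 in palbociclib, and at 6.74 in JQ1-A, 6.06 in JQ1-B, 6.14 in JQ1+paclitaxel and 8.91 in JQ1+palbociclib. *MXI1* was at 10.4, 8.29, 4.95 and 12.9 CPM and at 9.27, 7.44, 8.86 and 13.5 CPM in the same order of libraries. In both genes the groups with and without JQ1 overlapped, and paclitaxel was the lowest library. The log2 fold changes with JQ1 were 0.05 ± 0.17 (adjusted p = 0.854) for *MXD1* and 0.32 ± 0.21 (0.243) for *MXI1*. A UMI of *MXD1* was found in 11.4 to 20.1% of cells and one of *MXI1* in 11.0 to 26.7%, so most cells had none at this depth.

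*MLX* (chromosome 17, 40719090 to 40725257, plus strand) was at 56.4 CPM in pre-treatment, 48.4 in DMSO, 53.0 in paclitaxel and 37.3 in palbociclib. It was at 32.9 CPM in JQ1-A, 40.7 in JQ1-B, 41.5 in JQ1+paclitaxel and 30.9 in JQ1+palbociclib. Palbociclib again lay among the libraries with JQ1, and the other libraries without JQ1 lay above them. The fitted difference for JQ1, -0.22 ± 0.11, was not called (adjusted p = 0.148), but it was called on library totals without TMM (-0.41, 0.0255).

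**Figure D2:**
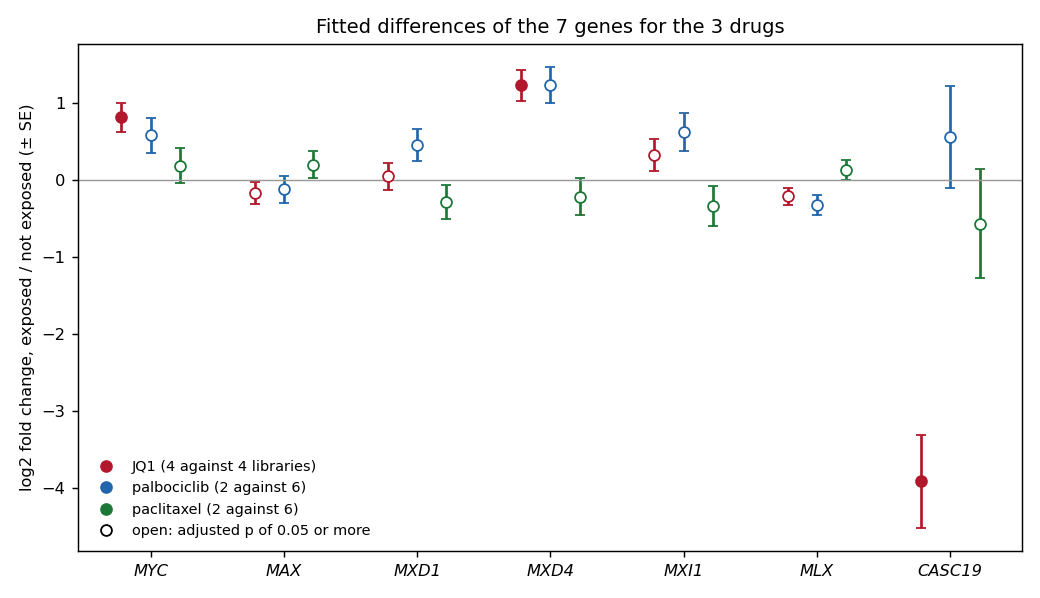
Fitted log2 fold change of each of the 7 genes for exposure to JQ1, palbociclib and paclitaxel, with bars of 1 standard error and open points where the adjusted p was 0.05 or more. Filled points are *MYC*, *MXD4* and *CASC19* for JQ1, and *MXD4* is about as high for palbociclib (1.23) as for JQ1 (1.22).

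*CASC19* (chromosome 8, 128084939 to 128239786, minus strand), a long noncoding RNA gene of the cancer-associated 8q24 gene desert, fell with JQ1. It had 217 UMIs in pre-treatment (15.4 CPM), 40 in DMSO (3.77 CPM), 142 in paclitaxel (7.81 CPM) and 169 in palbociclib (10.2 CPM). With JQ1 it had 12 UMIs in JQ1-A (0.742 CPM), 7 in JQ1-B (0.345 CPM), 28 in JQ1+palbociclib (1.16 CPM) and 0 in JQ1+paclitaxel. The groups did not overlap, with 9.29 ± 4.86 CPM (SD, n = 4) without JQ1 and 0.560 ± 0.499 CPM with it. The *CASC19* level in paclitaxel was 37.3-fold above a floor of 3 UMIs in JQ1+paclitaxel (0.209 CPM), with counting error in paclitaxel left out. For JQ1+paclitaxel to paclitaxel the ratio of CPM was 0 (95% interval 0 to 0.0334). The ratio of CPM was 0.197 for JQ1-A to DMSO (95% interval 0.0940 to 0.383) and 0.113 for JQ1+palbociclib to palbociclib (0.0730 to 0.169). The fitted log2 fold change was -3.91 ± 0.60 (adjusted p = 0.00288), whose size rests in part on the prior count added for the library at 0. The call held in all 16 alternatives in which *CASC19* was tested, and within the JQ1+palbociclib experiment it did not pass the filter. In the main fit it passed only through libraries without JQ1, the group where it was high. The call is therefore a description and not independent support.

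Within the libraries without JQ1, *CASC19* was lower in DMSO than in pre-treatment, at a ratio of 0.245 (95% interval 0.170 to 0.344). It was found in 23.6% of pre-treatment cells (95% exact binomial interval 20.2 to 27.2), 18.6% of palbociclib cells, 14.1% of paclitaxel cells and 7.63% of DMSO cells. With JQ1 the shares were 2.73% in JQ1+palbociclib, 1.29% in JQ1-A and 0.806% in JQ1-B. In JQ1+paclitaxel, 0 of 643 cells had a UMI (upper bound of the exact binomial interval 0.572%, a limit on cells with a UMI and not on cells that express the gene). The cell with most had 7 UMIs, in pre-treatment.

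*CASC8* and *CCAT1* are noncoding genes in the same interval upstream of *MYC*. *CASC8* was at 63.7 CPM in pre-treatment, 33.3 in DMSO, 42.7 in paclitaxel and 36.1 in palbociclib, against 13.8 in JQ1-A, 10.6 in JQ1-B, 8.02 in JQ1+paclitaxel and 16.1 in JQ1+palbociclib. *CCAT1* was at 48.2, 14.9, 30.7 and 47.6 CPM against 10.6, 9.70, 8.23 and 13.6 CPM in the same order. Neither overlapped between the groups, and both fell, by log2 values of 1.69 ± 0.24 (adjusted p = 0.00231) and 1.56 ± 0.31 (0.00719). For *CCAT1* the 95% intervals of DMSO (12.6 to 17.4 CPM) and JQ1+palbociclib (12.1 to 15.1 CPM) overlapped. Without JQ1, the ratio of DMSO to pre-treatment was 0.523 for *CASC8* and 0.309 for *CCAT1*. The ratios of JQ1-A to DMSO were 0.415 and 0.715. The call for *CCAT1* was lost with experiment as a term and in the 3 matched pairs. The GENCODE span of *CASC19* covers the stretch that other annotations give to *CCAT1*, so how their reads were divided is uncertain. Over the 8 libraries *CASC8* (Pearson r = 0.98 of log2 CPM + 1) and *CCAT1* (0.97) were the genes most like *CASC19* among 4433, followed by *CYB561*, *DUSP3* and *PCGF2*. These values are over 8 libraries that share exposures and are descriptions.

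Called genes were no more frequent among the other genes of the region (6 of 18) than over all genes tested (37.6%). Within 5 Mb of the *MYC* start, 31 genes with an annotated position had a row, and 20 passed the filter. *CCAT1* has no position of its own in that annotation and is not among them. Of the 18 that are not members, 4 were called higher with JQ1 and 2 lower, against 17.8% and 19.7% of all tested genes, with a median log2 fold change of -0.08 against -0.003 over all tested genes. Of an annotated list of 27 genes of 8q24 around *MYC*, members left out, 14 passed, 3 were called higher and 2 lower. *TRIB1*, a pseudokinase gene, was called at 1.03 ± 0.33 (adjusted p = 0.0389) and *MTSS1*, an actin regulator gene, at 0.71 ± 0.20 (0.0260), while the falls were those of *CASC8* and *CCAT1*. On library totals without TMM, 0 of the 14 were called higher and 4 lower. The call for *TRIB1* did not hold when either JQ1-A, JQ1-B, JQ1+paclitaxel, paclitaxel, DMSO or pre-treatment was left out, nor that for *MTSS1* when either JQ1-A, JQ1-B, JQ1+palbociclib or DMSO was. *CASC11*, which overlaps *MYC* on the opposite strand, did not pass the filter, with a mean of 0.806 CPM.

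**Figure D3:**
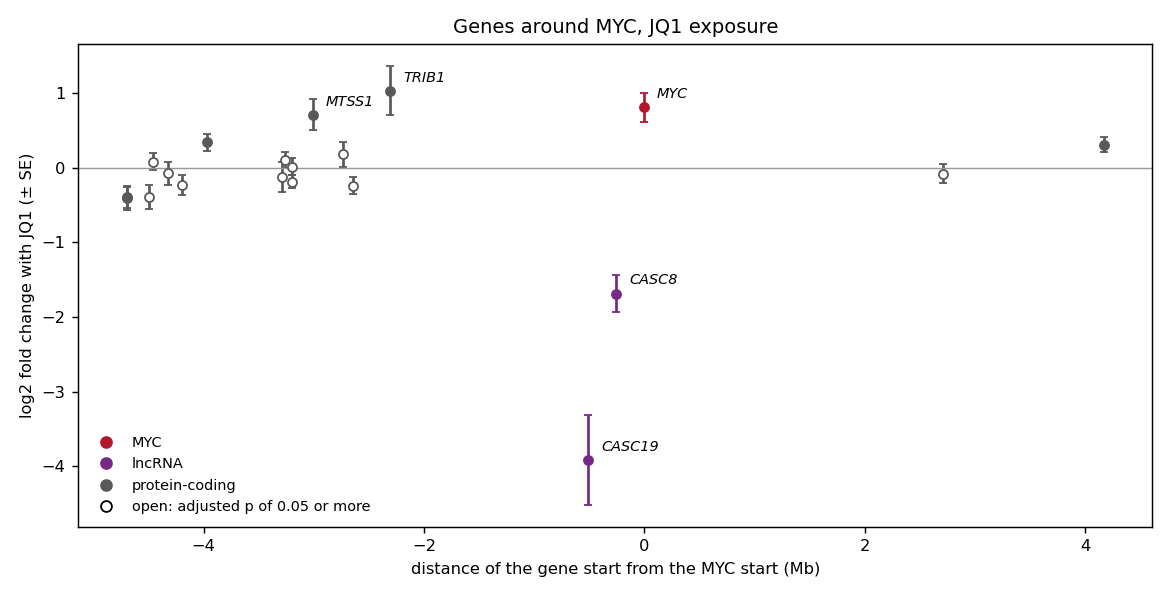
Fitted log2 fold change with JQ1 (bars of 1 standard error) against the distance of each gene's start from that of *MYC*, in Mb, for the 20 genes within 5 Mb that passed the filter. *CASC8* and *CASC19* are the points far below 0, upstream of *MYC*, which itself is above 0.

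For palbociclib, 0.28% of the tested genes were called and none of the 7 members. *MXD4* came nearest, at a log2 difference of 1.23 ± 0.23 (adjusted p = 0.0712). Its libraries with palbociclib (310 and 397 CPM) lay above the other 6 (77.7 to 242). The same held for *MXI1* (12.9 and 13.5 CPM against 4.95 to 10.4), at 0.62 ± 0.24 (adjusted p = 0.186). Over all tested genes 14.4% did not overlap in this comparison. The values were 0.58 ± 0.23 (adjusted p = 0.190) for *MYC* and -0.33 ± 0.14 (0.207) for *MLX*. *MXD4* was called for palbociclib by DESeq2, without a filter on low counts, and without paclitaxel, JQ1+paclitaxel or JQ1+palbociclib, with values from 0.63 to 1.72 over all alternatives. *MYC* was called without JQ1+palbociclib (0.93, adjusted p = 0.0461).

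For paclitaxel, 0% of the tested genes were called by edgeR, 395 were under an unadjusted p of 0.05, and DESeq2 called 9. No member was called. *MYC* had a log2 fold change of 0.18 ± 0.23 and *MXD4* of -0.22 ± 0.24. The difference of the JQ1 effect with and without a partner drug was tested by interaction terms, for which 0.0108% of genes were called with palbociclib and 0.388% with paclitaxel, none of them a member. For palbociclib the interaction was -0.94 ± 0.20 for *MXD4* (adjusted p = 0.113) and -0.58 ± 0.29 for *MYC* (0.335). For paclitaxel it was 0.45 ± 0.20 for *MXD4* (adjusted p = 0.291) and 0.57 ± 0.29 for *MYC* (0.348). These terms rest on 1 library for each combination. The *MXD4* term with palbociclib was called by DESeq2, without a filter on low counts, and without pre-treatment or DMSO. The *MYC* terms were called without DMSO (palbociclib) and without pre-treatment (paclitaxel).

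Of 8 other genes of the MAX and MLX network, 3 passed the filter and 1 was called for JQ1, against 37.6% of all tested genes. The called gene was *MLXIP*, a partner of MLX, at 0.60 ± 0.13 (adjusted p = 0.0105). *MYCN* and *MYCL* were at most at 0.181 CPM in any library. Of 19 cofactors and regulators of MYC tested, 3 were called higher and 7 lower with JQ1, against 17.8% and 19.7% of all tested genes, with a median of -0.15. *RUVBL1*, a chromatin-remodelling helicase gene, fell by 0.79 ± 0.14 (adjusted p = 0.00432) and *AURKA*, a mitotic kinase gene, by 0.74 ± 0.17 (0.0132). *FBXW7*, whose product marks MYC for destruction, rose by 0.59 ± 0.16 (adjusted p = 0.0228) and the kinase gene *PIM1* by 0.53 ± 0.16 (0.0292). The calls for *FBXW7* and *PIM1* were each lost in 9 of 17 alternatives, including those that left out JQ1-A, JQ1-B or pre-treatment. On library totals without TMM, 0 of the 19 were called higher and 10 lower.

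Genes known to be induced by MYC, mostly ribosome biogenesis and metabolic genes, were mostly lower with JQ1. Of 41 tested, 36 had a lower and 5 a higher estimate, 17 were called lower and 1 higher, and the median log2 fold change was -0.37 against -0.003 over all tested genes. Over all tested genes 19.7% were called lower. *NOP16*, a ribosome biogenesis gene, fell by 1.04 ± 0.21 (adjusted p = 0.00682) and *MRTO4*, another, by 0.97 ± 0.18 (0.00587). *TFRC*, the transferrin receptor gene, rose by 0.61 ± 0.11 (adjusted p = 0.00575). Without pre-treatment the list had 5 genes called lower and without paclitaxel 10, and with experiment as a term it had 2. Over all tested genes the lower calls also fell, from 1833 to 1063, 1611 and 278 in these settings.

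The summed level of these genes was 11317 CPM in pre-treatment, 11004 in DMSO, 14040 in paclitaxel and 7674 in palbociclib. It was 7245 CPM in JQ1-A, 7965 in JQ1-B, 7897 in JQ1+paclitaxel and 6654 in JQ1+palbociclib. Palbociclib lay within the range of the libraries with JQ1. For palbociclib the median of the list was -0.27 on the log2 scale, with 35 of 41 estimates lower and none called, and for paclitaxel it was 0.34, with 40 of 41 higher and none called. Without the palbociclib library the first became 0.006, and without the paclitaxel library the second became -0.01. Genes known to be repressed by MYC had a median of 0.22 for JQ1 over 6 tested. Of these, *CDKN1A*, the p21 cell-cycle inhibitor gene, rose by 1.07 ± 0.20 (adjusted p = 0.00590) and 5 were not called. Over all tested genes 17.8% were called higher. *ARRDC4*, a glucose-responsive target of MLX with MLXIP, rose by 1.09 ± 0.27 (adjusted p = 0.0159), and *TXNIP*, another, had 1.05 ± 0.37 (0.0554). The call for *ARRDC4* was lost without pre-treatment, DMSO or JQ1-A.

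Relations between the members across the cells of a library were weak. Spearman's rho of thinned counts, over 445 to 972 cells of a library, was between -0.129 and 0.162 for every pair of members in every library. *MYC* with *MAX* had a median of 0.022 over the 8 libraries (-0.082 to 0.097), *MYC* with *MXD4* -0.001 (-0.129 to 0.136), *MYC* with *MLX* 0.010 (-0.075 to 0.069) and *MYC* with *CASC19* 0.009 over 7 libraries (-0.043 to 0.070). Cells of a library share its preparation, and sparse counts lower such values. For 4410 genes averaging 0.2 thinned UMIs or more, 90% of the mean correlations with *MYC* lay between -0.050 and 0.041, and with *MXD4* between -0.074 and 0.044. The medians of the pairs with *MYC* lay inside that range.

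The gene most like *MYC* was *IRX2*, an Iroquois homeobox gene, by both measures used. Over the 8 libraries *IRX2* had a Pearson r of 0.98, followed by *FSTL1* (0.97), *ZC3H11A* (0.96), *ASS1* (0.96) and *MIDN* (0.95) among 4433 genes. *IRX2* was at 828 to 976 CPM in pre-treatment, DMSO and paclitaxel, at 1080 in JQ1-B and at 1318 to 1436 in palbociclib, JQ1-A, JQ1+paclitaxel and JQ1+palbociclib. Across cells its rho with *MYC* was between 0.153 and 0.356 in the 8 libraries (mean 0.238). The next genes were *TSC22D1* (mean 0.132), *JUNB* (0.125), *DUSP1* (0.123) and *NPM1* (0.123) among 2092 genes that averaged 0.5 thinned UMIs or more.

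*MXD4* was lower in cells with more RNA of the MYC-induced genes. Its rho with their summed thinned UMIs was negative in all 8 libraries, from -0.268 in JQ1+paclitaxel to -0.030 in JQ1+palbociclib, with a median of -0.174. The rho of *MXD4* with a cell's mitochondrial share was positive in all 8 libraries (0.081 to 0.20), and that with the number of genes detected was negative in 7 of 8 (-0.194 to -0.022) and 0.119 in JQ1+palbociclib, values of like size whose part in the relation was not tested. For *MYC* the rho with the summed genes was 0.191 in pre-treatment, 0.120 in DMSO and 0.174 in paclitaxel, and between -0.061 and 0.048 in the other 5 libraries. For *MAX* it was between -0.057 and 0.086 and for *MLX* between -0.028 and 0.106. In cells called G1 alone, a choice made after seeing the data, the median for *MXD4* was -0.103, with negative values in 6 of 8 libraries. For *MYC* the G1 values ran from -0.080 in DMSO to 0.195 in paclitaxel (21 cells), and 2 were negative. The rho of *MYC* with the number of genes detected split the same libraries. It was 0.045 in pre-treatment, 0.086 in DMSO and 0.110 in paclitaxel, and -0.177 to -0.024 in the others, and its part was not tested. With the summed MYC-repressed genes, the rho of *MYC* was positive in all 8 libraries (0.006 to 0.188).

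**Figure D4:**
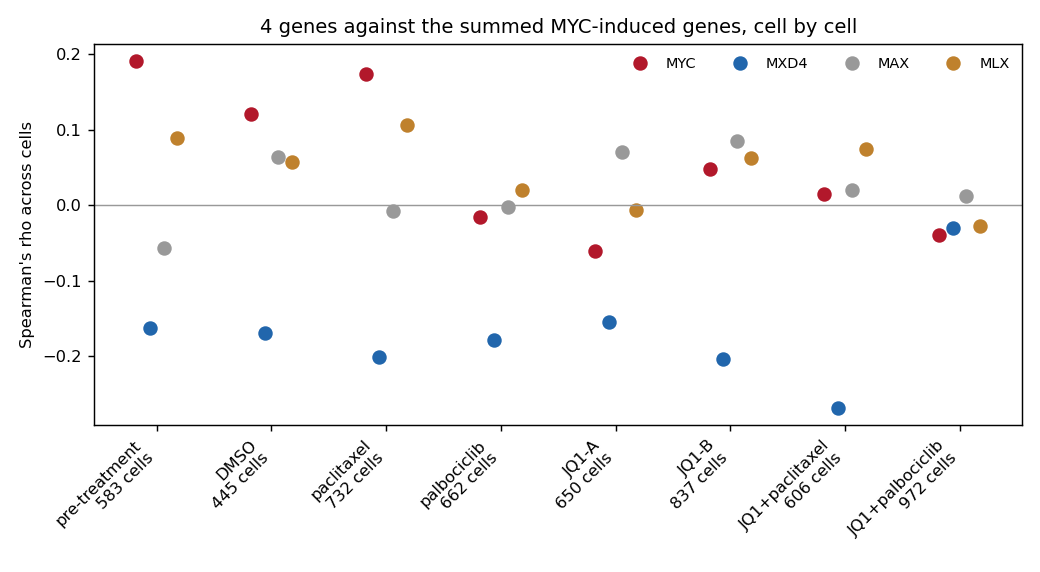
Spearman's rho across the cells of each library between thinned counts of *MYC*, *MXD4*, *MAX* or *MLX* and the summed thinned counts of the MYC-induced genes, with the number of cells under each library. *MXD4* is below 0 in all 8 libraries and *MYC* is at 0.120 to 0.191 in pre-treatment, DMSO and paclitaxel.

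Both *MYC* and *MXD4* differed between cell-cycle phases, which were called from S and G2/M gene lists that hold no member. *MXD4* was higher in G1 cells than in S cells in 7 of 8 libraries, for example 201 CPM (95% Poisson interval 175 to 230) against 106 (91.6 to 123) in DMSO and 327 (308 to 346) against 210 (192 to 229) in JQ1-B. JQ1+palbociclib was the exception, with 400 CPM in G1, 427 in S and 398 in G2/M. The share of thinned cells in G1 was 2.87% in paclitaxel (21 cells), 23.4% in DMSO and close to that in pre-treatment. It was 42.8 to 61.8% in the other libraries. Cells of all libraries were scored together, so these shares are relative and not a direct measure of the cell cycle. Within G1 cells, mean *MXD4* was 207 ± 100 CPM over the libraries without JQ1 and 330 ± 48.9 CPM over those with it (SD, n = 4 each). Within S cells these means were 143 ± 103 and 241 ± 126 CPM, and within G2/M cells 138 ± 88.0 and 229 ± 113 CPM. *MYC* was at 601 ± 110 CPM with JQ1 and 360 ± 142 CPM without in G1 cells, at 464 ± 67.0 and 318 ± 98.7 CPM in S cells and at 481 ± 63.0 and 344 ± 74.7 CPM in G2/M cells. The higher means with JQ1 were thus present within each phase, with overlap between the groups in each. *CASC8* did not overlap between the groups in any of the 3 phases. Neither did *CASC19* in S and G2/M cells, *CCAT1* in G1 and S cells and *MLX* in G2/M cells. The share of all genes without overlap within a phase was not computed, so these are descriptions.

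**Figure D5:**
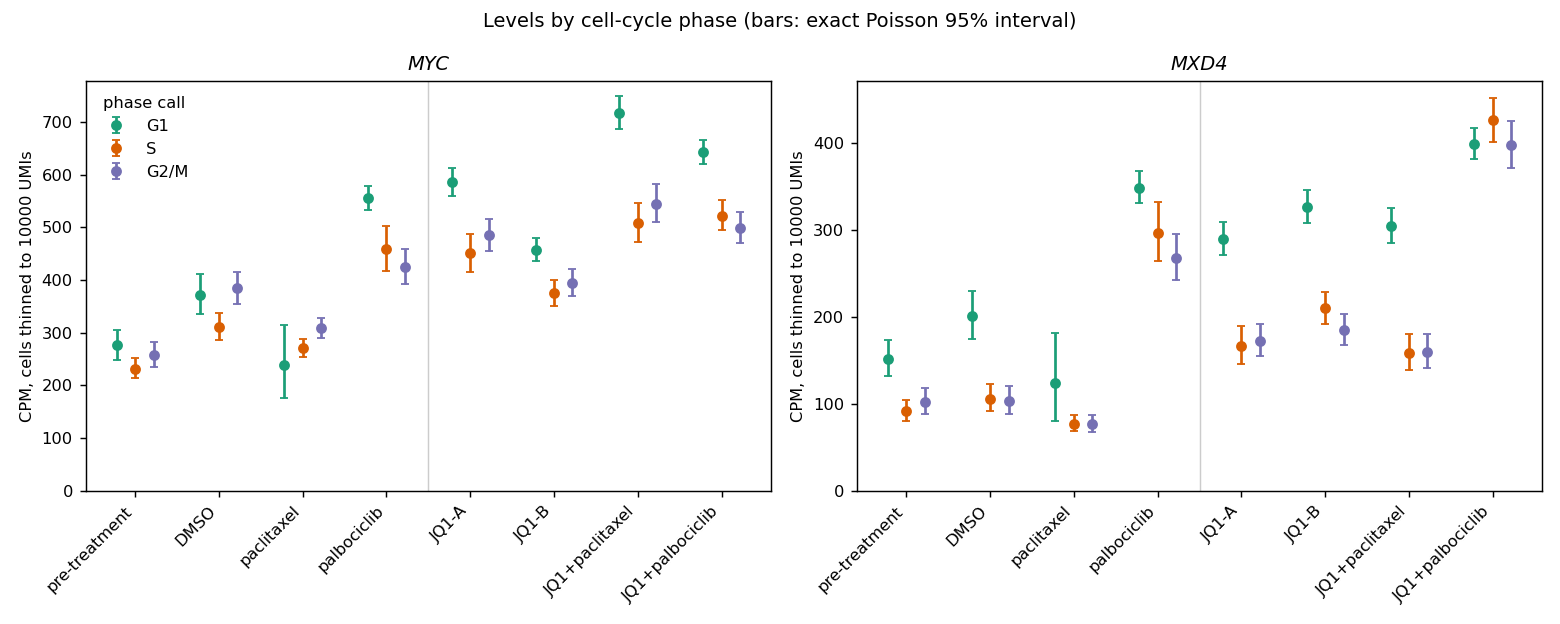
Levels of *MYC* and *MXD4* (CPM from cells thinned to 10000 UMIs, linear axis from 0) in cells called G1, S or G2/M in each library, with exact Poisson 95% intervals. *MXD4* is higher in G1 than in S in every library but JQ1+palbociclib, and the G1 points of paclitaxel rest on 21 cells.

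Cells of JQ1+palbociclib fell into 5 clusters when a random part of their UMIs was clustered without the members, and levels were read from the other part. The cluster led by *SDPR* and *GCLC* (199 cells) had the highest *MXD4*, 561 CPM (95% Poisson interval 532 to 592), and the lowest *MYC*, 438 CPM (412 to 465). In the other 4 clusters *MXD4* was between 331 and 383 CPM and *MYC* between 520 and 630 CPM. The cluster led by the matrix genes *COL1A1* and *HTRA3* (134 cells) had 630 CPM of *MYC* (592 to 670) and 9.96 CPM of *MAX* (5.69 to 16.2, 16 UMIs), and the cluster led by *PKIB* and *GPRC5A* (125 cells) had 520 CPM of *MYC* (484 to 559) and 28.6 CPM of *MAX* (20.5 to 38.8). *CASC19* had at most 7 UMIs in any cluster. The 2 parts come from the same cells, so these levels describe this library and were not tested.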

How the data were processed

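Single-cell RNA was measured with 10x Genomics Chromium 3' v2 chemistry. The authors aligned reads to hg19 and counted them with Cell Ranger, per the labels and the study's methods, and the deposited table holds raw UMI counts per gene and cell, with each cell's library in a second deposited file, whose UMI and gene counts per cell were not used for tests. Counts of all 5738 cells were summed per library, since cells are not replicates, and p-values measure only the spread between 8 libraries. edgeR 4.0.16 (R 4.3.3) was used with TMM and its quasi-likelihood test, with Benjamini-Hochberg adjustment over 9288 genes, after a filter of at least 5 CPM in at least 2 libraries, with interaction terms in a second fit. The fits were tested on simulated data. Values per cell used 5487 cells that passed the study's filter (1 to 15% mitochondrial UMIs, at least 2000 genes), thinned to 10000 UMIs each (88 cells had fewer and were dropped). Seurat 5.3.0 called phases and clusters (resolution 0.4, 20 principal components, 2000 variable genes). Doublets were not called, as every cell is SUM159. Positions are from GENCODE v44lift37, on which 91.1% of tested genes were found by name. Alternatives were DESeq2 1.42.0, other scaling, filters and cells, each library left out, and experiment as a term. The members and lists, and the rule for named genes (the members, the 2 largest called rises and falls for JQ1 in each list, and the 5 genes most like *MYC*), were chosen with earlier results of these data known. Genes and values named outside that rule were chosen after they were seen.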

Additional observations from a re-analysis of the deposited data

Results flagged for a closer look

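*MXD4* in JQ1+palbociclib stood apart from the other 3 libraries with JQ1. It was at 397 CPM there, against 223 to 242 CPM in the others, and the gap to the nearest library was 0.890 of the whole range, above Dixon's 95% critical value for 4 samples. JQ1+palbociclib also had the highest median mitochondrial share (7.18%). With mitochondrial UMIs left out of the totals, *MXD4* was at 427 CPM there and at 234 to 254 CPM in the other 3. The other library with palbociclib was at 310 CPM, above those 3. Of 14 groups of 4 libraries examined, 1 was flagged, and chance flags about 1 in 20.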

How the results depend on the processing

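The genes called for JQ1, 3488 in all, numbered 463 with experiment as a term, 361 in the 3 matched pairs, 131 within the JQ1+palbociclib experiment and 1760 to 4190 without 1 library. Of the genes named by rule, only *CASC19* and *CASC8* kept their JQ1 call with experiment as a term. Calls for palbociclib (26) numbered 515 by DESeq2, 205 without a filter on low counts, 0 with experiment as a term and 0 to 938 without 1 library, and calls for paclitaxel (0) 9, 2 and, without 1 library, 0 to 4. Calls for the interaction with palbociclib (1) numbered 34 by DESeq2, 689 without a filter, 4 without the deepest 5% of cells and 0 to 1112 without 1 library, and with paclitaxel (36) 75, 724, 80 and 1 to 1141. Where a combination kept 1 library, that library was assumed to vary like the others. Within the JQ1+palbociclib experiment the JQ1 difference turned sign for *MYC* (-0.0084), *MAX* (0.14), *MXD1* (-0.37), *MXI1* (-0.25), *ARRDC4* (-0.021) and *TRIB1* (-0.14). That of *MXD1* was also -0.15 without TMM, -0.02 without DMSO and -0.10 without paclitaxel or JQ1+paclitaxel, and up to 0.18 without 1 library. The paclitaxel value of *MYC* was -0.23 without JQ1+paclitaxel and -0.010 with experiment as a term, and ranged up to 0.53 without 1 library, and that of *MXD4* ranged from -0.64 to 0.12. MYC-induced genes called lower with JQ1 (17) numbered 22 by DESeq2 and 29 without TMM. Over all tested genes the lower calls (1833) numbered 1827 and 2925 in these settings. In G1 cells the median rho was 0.0537 for *MYC* and *CASC19*, -0.0413 for *CASC19* and *MAX*, 0.0587 for *CASC19* and *MXD1*, -0.0412 for *CASC19* and *MXD4*, -0.0248 for *CASC19* and *MXI1*, 0.0572 for *CASC19* and *MLX*, 0.0850 for *MAX* and *MXD4*, and -0.103 for *MXD4* and the MYC-induced genes. Pearson's r for *MAX* and *MLX* was 0.0502. The causes were not tested. Interactions with experiment as a term, or without paclitaxel, palbociclib, JQ1+paclitaxel or JQ1+palbociclib, could not be fitted. The groups share no replicate numbers, so the only pairing used is that of the 3 matched pairs. At 7 to 28 UMIs in the libraries with JQ1 that had any, differences in *CASC19* among those libraries were limited by depth.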
